A study of Mus musculus with 8 samples.

Results

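Klf2, S1pr1, Lef1, Tcf7, Il7r, Dapl1, Igfbp4 and Satb1 are genes of naive and recirculating lymphocytes, taken by symbol as a named set of 8 among the 31053 mouse genes measured. They were followed in droplet single-cell RNA-seq of CD45+ cells, the surface marker of white blood cells. The control group was magnetically sorted from normal mouse brain and labelled as 4 samples, and the glioma group came from tumor tissue, also labelled as 4 samples. The labels give no strain, age, tumor line or treatment for either group. Each group was deposited as 1 pooled matrix in which no barcode is tied to an animal. Every comparison below is therefore between 2 libraries, has no replicate check and carries no p-value, and all intervals are 95% and cover counting error only.

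Naive T cells circulate between blood and lymphoid organs. The transcription factor Klf2 maintains the sphingosine-1-phosphate receptor S1pr1, which lets cells leave tissue. Lef1 and Tcf7 are HMG-box factors that keep T cells in naive or memory states, Il7r is the receptor chain through which interleukin 7 sustains resting T cells, and Satb1 organises chromatin in developing and mature lymphocytes. Dapl1 and Igfbp4 are best known here as transcripts of naive T cells. Antigen stimulation lowers several of these genes in T cells.

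Lymphocyte classes were gated on raw UMIs, which are counts of distinct captured molecules, of marker genes that include none of the 8. Barcodes with at least 1000 UMIs and at most 10% mitochondrial UMIs were kept as cells, 13680 in the control library and 11049 in the glioma library, with median depths of 6842 and 11332 UMIs. CD4 cells numbered 11 in control and 431 in glioma, CD8 cells 23 and 364, gamma delta T cells 9 and 84, NK cells 25 and 71, and B cells 40 and 33. Foxp3 cells, the regulatory T cell gate, numbered 0 and 155, so that class exists in the glioma library alone and has no control value. Summed T cell markers stood at 5305 CPM in control CD4 and 5124 CPM in glioma CD4 cells. They stood at 4.15 CPM in control microglia and 6.20 CPM in glioma macrophages. CPM stands for the UMIs of a gene scaled to a fixed total of UMIs per summed class. The NK gate would also take innate lymphocytes that share Ncr1 and Klrb1c. Of the 41 barcodes that passed as cells in both libraries, 2 were glioma CD4, 3 glioma CD8 and 1 glioma Foxp3 cells, and none was a control lymphocyte. Several gated sums carried markers of other cells: endothelial markers stood at 1483 CPM in the control B sum, and neutrophil markers at 9777 CPM among the 24 control T cells without a class. Myeloid markers stood at 3844 CPM in control CD8 and 4203 CPM in control gamma delta cells, against 352 and 655 CPM in glioma. Control gamma delta cells also held 2929 CPM of NK markers, above their 2484 CPM of gamma delta markers.

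Promoter windows of 300 bases were available for 7 of the 8 genes (RefSeq, GRCm38.p6), from 250 bases before to 50 after each start; S1pr1 was not matched. The windows below belong to Klf2, which was lower in glioma in every class compared, to Tcf7, which was at least 2-fold lower in CD4 and CD8 cells, and to Dapl1, with 249 of the 299 Dapl1 UMIs of glioma T cells in the CD8 class. Capitals mark CACCC, the core of the motif bound by KLF factors, or GTAAACA, a forkhead motif, each searched on both strands; the sequence reads 5′ to 3′ on the gene's strand.
Klf2, chr8:72318812-72319111, plus strand: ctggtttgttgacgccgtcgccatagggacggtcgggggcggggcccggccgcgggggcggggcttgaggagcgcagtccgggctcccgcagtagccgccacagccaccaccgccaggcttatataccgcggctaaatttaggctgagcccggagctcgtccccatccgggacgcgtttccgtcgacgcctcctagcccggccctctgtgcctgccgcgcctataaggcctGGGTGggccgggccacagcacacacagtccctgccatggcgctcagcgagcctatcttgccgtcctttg
Tcf7, chr11:52282965-52283264, minus strand: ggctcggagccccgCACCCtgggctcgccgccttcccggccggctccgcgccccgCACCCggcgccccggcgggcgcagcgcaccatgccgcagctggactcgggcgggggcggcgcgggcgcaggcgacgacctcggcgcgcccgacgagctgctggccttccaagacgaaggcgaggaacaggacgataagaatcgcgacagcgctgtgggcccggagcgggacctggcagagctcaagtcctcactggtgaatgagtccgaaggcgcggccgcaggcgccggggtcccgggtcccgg
Dapl1, chr2:59484403-59484702, plus strand: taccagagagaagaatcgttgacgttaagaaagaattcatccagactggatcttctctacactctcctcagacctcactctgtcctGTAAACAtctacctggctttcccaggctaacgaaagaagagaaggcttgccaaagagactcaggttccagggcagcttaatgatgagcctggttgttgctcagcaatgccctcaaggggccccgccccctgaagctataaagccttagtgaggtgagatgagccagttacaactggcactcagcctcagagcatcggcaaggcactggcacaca
The Klf2 window held CACCC once, as its reverse complement GGGTG, at position -19 from the start. The Tcf7 window, for a single start of the 2 listed, held CACCC at -236 and -195. From its first ATG the printed Tcf7 window reads in frame to its end without a stop codon, so much of it may be coding sequence. That reading was not checked against a protein sequence. Both CACCC matches lie before this ATG. This short motif was present in 57.5% of all 32851 promoter windows. The Dapl1 window held GTAAACA at -164, a motif found in 3.65% of all windows. The TCF/LEF motif CTTTGAA, in 5.14% of all windows, and the GATA motif AGATAAG, in 3.04%, had no match in the 15 windows listed for the 7 genes.

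Klf2 was at least 2-fold lower in glioma in all 5 classes that both libraries hold. It lies at chr8:72319033-72321656 on the plus strand (GRCm38, GENCODE). Its level in control was 1253 CPM in CD4, 955 in CD8, 766 in gamma delta, 1561 in NK and 2155 in B cells. In glioma it was 75.3 CPM in CD4, 142 in CD8, 227 in gamma delta, 133 in NK, 448 in B and 175 in Foxp3 cells. No glioma interval overlapped the control interval of its class. The log2 ratio of glioma to control was -4.06 in CD4 (interval -4.37 to -3.74), -2.75 in CD8 (-2.98 to -2.51), -1.76 in gamma delta (-2.20 to -1.29), -3.55 in NK (-3.92 to -3.20) and -2.26 in B cells (-2.65 to -1.90). Of the 497 Klf2 UMIs in control B cells 126 lay in 1 cell, and without the 2 control B cells that carried endothelial markers the B cell ratio was -1.97. At most 5% mitochondrial UMIs, which left 5 control gamma delta cells, the gamma delta ratio was -0.38 and no longer 2-fold. With each cell thinned to 1000 UMIs, 56.5% of control CD8 cells and 13.2% of glioma CD8 cells still held a Klf2 UMI.

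**Figure D1:**
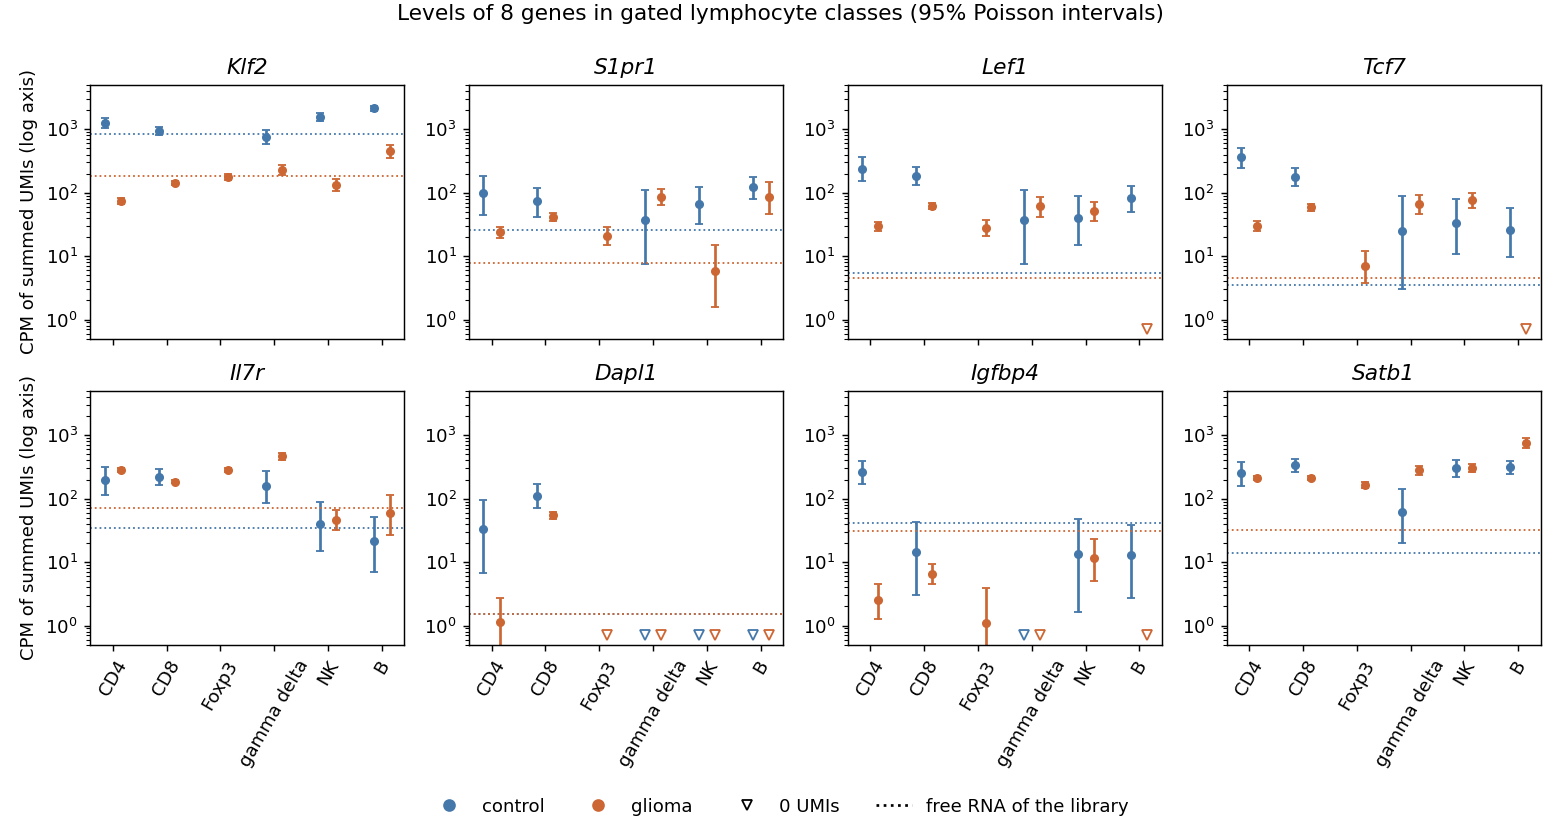
Levels of each gene in CPM (log axis) in the gated lymphocyte classes of the control (blue) and glioma (orange) libraries, with 95% Poisson intervals; open triangles mark 0 UMIs and dotted lines the level in free RNA of each library. Klf2 is lower in glioma in all 5 classes that both libraries hold, while Dapl1 is seen above the free RNA lines in CD8 cells and in control CD4 cells.

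Outside lymphocytes, Klf2 could be compared only between unlike cell types of the 2 libraries. Control microglia held 740 CPM of Klf2 and glioma macrophages 151 CPM, a log2 ratio of -2.29. Microglia markers stood at 4632 CPM in the former and 17.4 CPM in the latter, so cell type and library cannot be told apart there. Free RNA, measured in barcodes too shallow to be cells, held 854 CPM in control and 182 CPM in glioma. From the myeloid markers in each sum, free RNA can bring at most 148 CPM of the Klf2 level in control CD8 cells and at most 58.3 CPM in control CD4 cells. Immediate early and dissociation genes, a list of 15 that includes Fos, Fosb and Nr4a1, moved in the same direction. In glioma CD8 cells 12 of 14 compared were at least 2-fold lower, against 19% of all genes (median log2 ratio -1.90, against -0.19 over all genes). In NK cells 12 of 14 were lower, against 17.9% (median -1.96), and in B cells 9 of 14, against 13.9% (median -1.70). In CD4 cells 9 of 15 were lower, against 21.3% (median -1.10), and in gamma delta cells 9 of 13, against 14.4% (median -1.29). None was 2-fold higher in these classes. In the comparison of glioma macrophages with control microglia, 11 of 15 were lower, against 35.7% of all genes, and 1 was higher, against 14.9% (median -1.39). The part of this response in the Klf2 difference was not tested.

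**Figure D2:**
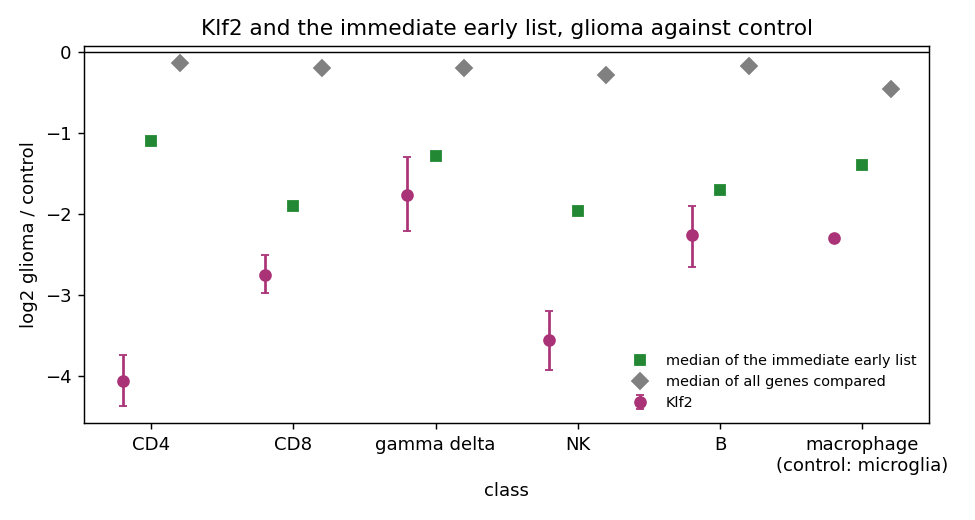
Log2 ratio of glioma to control for Klf2 (purple, with 95% counting interval), the median of the immediate early and dissociation list (green squares) and the median of all genes compared (grey diamonds), by class; the last position sets glioma macrophages against control microglia. Klf2 lies below the list median in every position, and the list median lies below that of all genes.

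Within the glioma library Klf2 was ordered B, gamma delta, Foxp3, CD8, NK and CD4 from high to low. The intervals of gamma delta and Foxp3 overlapped, as did those of CD8 and NK; the other neighbours were apart. Foxp3 cells exceeded CD4 cells, with a log2 ratio of CD4 to Foxp3 of -1.21 (-1.44 to -0.99). Control endothelial cells, gated on Cldn5 and Flt1, held 4548 CPM, above every lymphocyte class of either library.

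S1pr1 encodes the receptor that reads the sphingosine-1-phosphate gradient (chr3:115710433-115715072, minus strand). Control levels were 98.0 CPM in CD4, 72.7 in CD8, 37.1 in gamma delta, 67.3 in NK and 121 in B cells, from 9, 15, 3, 10 and 28 UMIs. Glioma levels were 23.8 CPM in CD4, 41.6 in CD8, 21.0 in Foxp3, 85.9 in gamma delta, 5.85 in NK and 85.6 in B cells. The control intervals of all neighbours in this order overlapped. The log2 ratio was -2.11 in CD4 (-3.02 to -0.87) and -3.42 in NK cells (-5.65 to -1.73), the latter from 4 glioma and 10 control UMIs. In CD8 (-0.85, interval -1.56 to 0.06), gamma delta (1.0, interval -0.42 to 3.54) and B cells (-0.47, interval -1.58 to 0.49) the interval included no difference. Glioma gamma delta cells held more S1pr1 than glioma CD4 cells (log2 ratio 1.86, interval 1.33 to 2.36), and CD8 cells more than NK cells (2.66, interval 1.45 to 4.72). Glioma macrophages held 1.25 CPM.

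The rest of the sphingosine-1-phosphate axis was sparse. Of 13 listed genes, 7 had the 20 UMIs needed for comparison in CD8 cells, and 4 of these were at least 2-fold lower in glioma, against 19% of all genes, with a list median of -1.05. They were Sgpl1, the lyase that degrades the lipid (-1.62), Cd69, which holds S1pr1 inside the cell (-1.49), the kinase Sphk2 (-1.08) and the G protein subunit Gnai2 (-1.05). The interval of Sphk2 (-2.26 to 0.72) included no difference. Cd69 stood at 228 CPM in control and 81.7 CPM in glioma CD8 cells. In NK cells 0 of 5 compared genes passed 2-fold.

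Lef1 (chr3:131110471-131224356, plus strand) and Tcf7 (chr11:52252371-52283014, minus strand) had similar patterns in alpha beta T cells. Lef1 was 240 CPM in control CD4 and 184 in control CD8 cells, against 29.5 and 62.2 CPM in glioma. Tcf7 was 359 and 179 CPM in control against 30.0 and 58.9 CPM in glioma. The log2 ratios in CD8 cells were -1.58 for Lef1 (-2.06 to -1.04) and -1.62 for Tcf7 (-2.11 to -1.07). In CD4 cells they were -3.05 for Lef1 (-3.68 to -2.30) and -3.60 for Tcf7 (-4.14 to -2.99). The CD4 values rest on 11 control cells: 16 of their 33 Tcf7 UMIs and 9 of their 22 Lef1 UMIs lay in 1 cell each. At most 5% mitochondrial UMIs, which left 7 control CD4 cells, the Lef1 ratio in CD4 was -0.82. Without the limit on myeloid markers, the Tcf7 ratio in CD8 was -0.62.

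NK and gamma delta cells gave other values for the same genes. Tcf7 was 33.6 CPM in control and 76.1 CPM in glioma NK cells, a log2 ratio of 1.05 whose interval, -0.14 to 2.86, included no difference. Lef1 in NK cells was 40.4 and 51.2 CPM. In gamma delta cells Tcf7 was 24.7 and 66.2 CPM and Lef1 37.1 and 60.8 CPM, and both intervals included no difference. Whether the NK and gamma delta ratios differ from the CD4 and CD8 ratios was not tested. In B cells Lef1 was 82.4 CPM in control, with 10 of 19 UMIs in 1 cell, and 0 UMIs in glioma, at least 4.17-fold lower when set against a floor of 3 UMIs. Control endothelial cells held 318 CPM of Lef1; leaving out the 2 control B cells with endothelial markers kept it lower there (log2 ratio -3.83 with the added UMIs, and 0 UMIs in glioma).

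Within glioma, Tcf7 was highest in NK cells (76.1 CPM), followed by gamma delta (66.2) and CD8 cells (58.9), whose intervals overlapped. CD4 cells (30.0) and Foxp3 cells (7.0) lay apart below them, with 0 UMIs in B cells. The log2 ratio of CD8 to Foxp3 was 3.02 for Tcf7 (2.27 to 4.0) and 1.14 for Lef1 (0.72 to 1.61). Glioma macrophages held 0.252 CPM of Tcf7 and 0.206 CPM of Lef1, below the T and NK classes of that library. The control macrophage gate, which carried endothelial markers at 2486 CPM, held 61.8 CPM of Lef1. Annotated genes overlap Lef1, Tcf7 and Satb1, and their reads could be shared with them; none overlaps the other 5.

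Of the 13 listed partners and targets of TCF/LEF factors, 12 were in the files and 10 could be compared in CD8 cells. 4 were at least 2-fold lower in glioma, against 19% of all genes, and none was higher, against 15.4% (median -0.99): the Wnt target Axin2 (-2.10), Tcf7l2 (-1.85), the receptor Slamf6 (-1.79) and the repressor Bcl6 (-1.01). The intervals of Tcf7l2 and Bcl6, with 3 control UMIs each, included no difference. Among 18 genes of lymph node homing and quiescence, 8 were lower, against 19%, and 1 was higher, against 15.4%, in CD8 cells (median -0.81). The largest differences were in the antiproliferative gene Tob1 (-2.55), Bach2 (-2.51), Klf3 (-2.30) and Foxp1 (-2.20), all regulators of resting lymphocytes. In CD4 cells 8 of the 18 were lower, against 21.3%, and 2 higher, against 14.8% (median -0.84).

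Il7r (chr15:9505788-9530176, minus strand) had CD4 and CD8 ratios whose intervals included no difference. It was 196 CPM in control and 283 CPM in glioma CD4 cells, and 223 and 186 CPM in CD8 cells. The log2 ratios were 0.49 (-0.14 to 1.29) and -0.28 (-0.69 to 0.20), so the counts leave the direction of both unsettled. Under alternatives the CD8 ratio ran from -1.10, with a stricter limit on myeloid markers, to 0.35 without that limit. The CD4 ratio ran from -0.47 without the deepest 5% of barcodes to 1.19 at most 5% mitochondrial UMIs. Gamma delta cells held 161 CPM in control and 463 CPM in glioma, a log2 ratio of 1.48 (0.73 to 2.46) from 13 control UMIs. Without the limit on myeloid markers, which gave 15 control gamma delta cells, it was 0.20. NK cells held 40.4 and 46.8 CPM and B cells 21.7 and 59.3 CPM. Glioma Foxp3 cells held 282 CPM, with a CD4 to Foxp3 log2 ratio of 0.00 (-0.15 to 0.15). Il7r was also present at 64.8 CPM in glioma macrophages and 39.6 CPM in control microglia. Among 11 interleukin 7 signalling genes compared in CD8 cells, 2 were lower in glioma, the kinase Pim1 (-1.60) and the inhibitor Socs1 (-1.15), and none was higher (median -0.27). Over all genes 19% were lower, so this share was near the background.

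Satb1 lies at chr17:51736187-51833290 on the minus strand. Control levels were 251 CPM in CD4, 339 in CD8, 61.8 in gamma delta, 303 in NK and 316 in B cells. Glioma levels were 211 CPM in CD4, 213 in CD8, 165 in Foxp3, 281 in gamma delta, 303 in NK and 757 in B cells. The ratio was lower in CD8 cells (-0.68, interval -1.02 to -0.30) and higher in B cells (1.26, interval 0.82 to 1.70) and gamma delta cells (2.05, interval 0.93 to 3.83), the last from 5 control UMIs. Without the limit on myeloid markers the CD8 ratio was 0.17, so its direction turned, and the B cell ratio was 0.84. NK (-0.01, interval -0.47 to 0.50) and CD4 cells (-0.28, interval -0.84 to 0.42) showed no difference beyond counting error. After thinning to 1000 UMIs, 27.5% of control and 60.6% of glioma B cells held a Satb1 UMI.

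Dapl1 (chr2:59484653-59505020, plus strand) was confined to few cells. In control it was 111 CPM in CD8 cells (23 UMIs in 10 cells) and 32.7 CPM in CD4 cells (3 UMIs). In glioma it was 54.5 CPM in CD8 cells (249 UMIs in 47 cells) and 1.14 CPM in CD4 cells (5 UMIs). Gamma delta, NK and B cells of both libraries and glioma Foxp3 cells had 0 UMIs; 0 of 155 Foxp3 cells, with 3 cells taken as the limit, allows up to 1.94% of cells with a UMI, which does not limit cells that express the gene below detection. The CD8 level in glioma was at least 33.7-fold above that in Foxp3 cells. Between libraries the CD8 log2 ratio was -1.06 (-1.65 to -0.35), and it was 1.06 at most 5% mitochondrial UMIs, where 14 control CD8 cells were left. It was -0.27 without the limit on myeloid markers and -0.88 without the barcode richest in Dapl1 in each sum. Another 30 control UMIs lay in the T cells without a class, whose sum carried the neutrophil markers given above.

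Igfbp4 (chr11:99041244-99054392, plus strand), a secreted binder of insulin-like growth factors, differed most in CD4 cells. It was 261 CPM in control CD4 cells, from 24 UMIs of which 11 lay in 1 cell, and 2.52 CPM in glioma CD4 cells, a log2 ratio of -6.66 (-7.88 to -5.61). Free RNA can bring at most 1.59 CPM of the glioma value. In CD8 cells it was 14.5 and 6.57 CPM, from 3 and 30 UMIs, the interval (-2.83 to 1.21) included no difference, and with 4 Cd3 UMIs required the log2 ratio was -0.40. NK cells held 13.5 and 11.7 CPM. Glioma macrophages held 30.9 CPM, more than any lymphocyte class of that library.

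**Figure D3:**
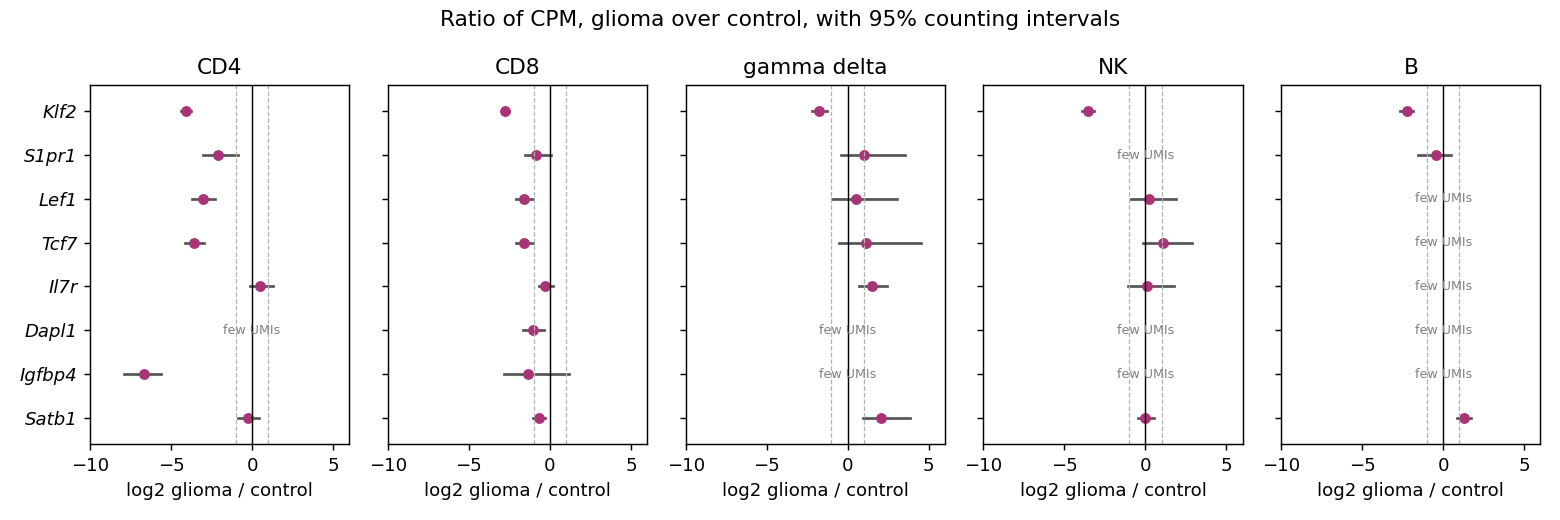
Log2 ratio of CPM, glioma over control, for each gene in 5 classes, with 95% counting intervals as lines and dashed lines at 2-fold; genes with fewer than 20 UMIs over both sums are marked as having few UMIs. CD4 and CD8 cells show 5 genes each at least 2-fold lower, while Satb1 is on the higher side in gamma delta and B cells. In CD8 cells the calls of Tcf7, Dapl1 and Igfbp4 did not hold under all alternatives.

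Counted together, 5 of the 8 genes were at least 2-fold lower in glioma CD8 cells, where 19% of all 8978 genes compared were, and 0 were higher, against 15.4%. The 5 were Klf2, Lef1, Tcf7, Dapl1 and Igfbp4. The median over the 8 was -1.20, against -0.19 over all genes. Klf2 and Lef1 stayed 2-fold lower in CD8 cells under all alternatives. Tcf7 (-0.62), Dapl1 (1.06) and Igfbp4 (-0.40) each lost the call under at least 1, and the main Igfbp4 interval included no difference. In CD4 cells 5 of 7 compared were lower, against 21.3% of all genes, and 0 higher, against 14.8% (median -3.05), and at most 5% mitochondrial UMIs this count was 3. In NK cells 1 of 5 was lower, against 17.9%, and 1 higher, against 7.66%. In B cells 1 of 3 was lower, against 13.9%, and 1 higher, against 6.42%. In gamma delta cells 1 of 6 was lower, against 14.4%, and 4 were higher, against 9.92%. Of these 5 calls only that of Satb1 held under all alternatives: Klf2 (-0.38), S1pr1 (0.58), Tcf7 (-0.61) and Il7r (0.20) each lost it under at least 1. Over all T cells in 1 sum, 67 in control and 1392 in glioma, 5 of 8 were lower, against 15% of all genes, and 0 higher, against 11.3% (median -1.68). In these pooled T cells Klf2 was 1091 and 136 CPM, S1pr1 76.5 and 38.9, Lef1 151 and 48.7, Tcf7 159 and 48.2, and Il7r 190 and 250 CPM. The S1pr1 log2 ratio of -0.99 (-1.43 to -0.49) lay just short of 2-fold, and that of Il7r was 0.39 (0.12 to 0.70).

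Other lists describe the state of the CD8 cells beside which these values stand. Of 25 activation and effector genes, 9 were at least 2-fold higher, against 15.4% of all genes, and 5 lower, against 19% and so near that share (median 0.31), with the costimulatory receptor Tnfrsf4 at 0 UMIs in control and 98.4 CPM in glioma, and the inhibitory receptor Pdcd1 at 9.69 and 267 CPM. Of 10 cycling genes 9 were higher, against 15.4% (median 2.62), and Mki67, a proliferation marker, was at 0 UMIs in control and 160 CPM in glioma. Of 9 tissue residence genes only the chemokine Xcl1 was higher (1.42) and none was lower (median -0.50). In CD4 cells 16 of 25 activation genes were higher, against 14.8%, and 1 lower, against 21.3%. Cycling genes went the other way there, 8 of 10 being lower, against 21.3% (median -1.63); Mki67 had 27 UMIs in the 11 control CD4 cells and stood at 294 CPM against 108 CPM in glioma. Fewer naive cells in a class and less RNA of these genes per cell cannot be told apart in a summed level.

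Between classes of the glioma library, whose median depths ran from 3347 UMIs in B to 9255 in CD8 cells, 3 of the 8 genes were at least 2-fold higher in CD8 than in CD4 cells, against 5.41% of all genes, and 0 lower, against 7.36%: Dapl1 (log2 ratio 5.44), Igfbp4 (1.34) and Lef1 (1.07). The Igfbp4 ratio was 0.61 without the limit on myeloid markers, and the Lef1 ratio was 0.96 with the mean over cells, both short of 2-fold. Satb1 was level between CD8 and CD4 cells (0.01, interval -0.12 to 0.14). In CD8 against Foxp3 cells 4 of 8 were higher, against 4.88%, and 0 lower, against 9.08%. In CD4 against Foxp3 cells Tcf7 was higher (2.05), against 4.17% of all genes, and Klf2 lower, against 5.61%, among 6 compared. In gamma delta against CD4 cells 4 of 6 were higher, against 8.57%, and 0 lower, against 10.3%. In CD8 against NK cells 3 of 8 were higher, against 8.08%, and 0 lower, against 6.55%. In B against CD8 cells 3 were higher, against 21.7%, and 5 lower, against 19.3%. Set against glioma macrophages, CD8 cells had 6 of 8 higher, against 17.6% of all genes, and 1 lower, Igfbp4, against 22.9%.

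**Figure D4:**
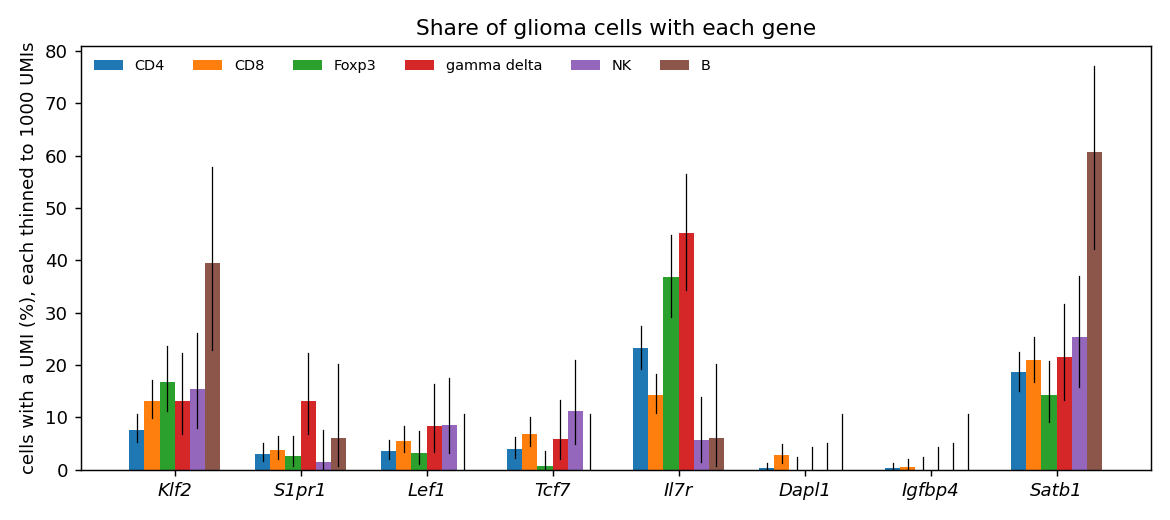
Share of glioma cells with at least 1 UMI of each gene after thinning every cell to 1000 UMIs, by class, with 95% exact binomial intervals as vertical lines. Satb1 and Klf2 are most frequent in B cells (60.6% and 39.4%) and Il7r in gamma delta cells (45.2%), while Dapl1 reaches 2.75% in CD8 cells.

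Inside the glioma classes the genes were unevenly shared among cells. After thinning to 1000 UMIs, 51.9% of CD8 cells, 55.2% of CD4 cells, 43.2% of Foxp3 cells and 27.4% of gamma delta cells held no UMI of any of the 8. Control CD8 cells without any made up 21.7% (interval 7.46 to 43.7). Among thinned glioma CD8 cells, S1pr1 was seen in 14.6% of the 48 with a Klf2 UMI and in 2.22% of the 316 without. Among CD4 cells it was seen in 18.2% of 33 and in 1.76% of 398. The exact binomial intervals of these pairs did not overlap. In glioma macrophages 0.106% of thinned cells held an S1pr1 UMI, and 1.53% did without thinning, at a median depth of 14332 UMIs.

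The same pairing was described at full depth by splitting a class at 1 Klf2 UMI, a split chosen after the data were seen. Glioma CD8 cells with Klf2 numbered 165 (median 9492 UMIs) and those without 199 (8835 UMIs). S1pr1 was 72.5 CPM with and 15.7 CPM without Klf2, a log2 ratio of 2.19 (1.69 to 2.75). In CD4 cells S1pr1 was 60.6 and 13.3 CPM (2.19, interval 1.61 to 2.79), in Foxp3 cells 32.4 and 5.15 CPM (2.51, interval 1.17 to 4.61) and in gamma delta cells 144 and 38.8 CPM (1.85, interval 0.92 to 2.97). Il7r showed no difference in CD8 cells (-0.04, interval -0.24 to 0.16) and was slightly higher with Klf2 in CD4 cells (0.20, interval 0.01 to 0.39). Among thinned gamma delta cells it was seen in 63.6% of 11 with Klf2 and 42.5% of 73 without, and these intervals overlapped. Lef1 and Tcf7 were higher with Klf2 in CD8 cells (0.72 and 0.78), and Dapl1 was lower (-0.85, interval -1.26 to -0.46). Of the Dapl1 UMIs of glioma CD8 cells 45.4% lay in 5 cells, a spread that the interval does not cover. Of the 7 other genes of the set compared in CD8 cells, 2 were at least 2-fold higher, against 3.85% of all genes, and 0 lower, against 1.74%. Of those compared, 1 of 5 was higher in CD4 cells, against 4.52% (0 lower, against 3.34%), 1 of 4 in Foxp3 cells, against 3.38% (0 lower, against 2.75%), and 2 of 5 in gamma delta cells, against 6.5% (0 lower, against 6.59%). In NK cells, 39 with and 32 without Klf2, 0 of 4 compared were higher, against 6.71%, and Il7r was lower (-1.63), against 1.82%. S1pr1 had 4 UMIs in NK cells with Klf2 and 0 in those without, and 0 of 11 thinned NK cells with Klf2 held one. Cells with Klf2 also held more myeloid marker UMIs: 453 against 268 CPM in CD8, 778 against 410 in CD4, 760 against 437 in Foxp3, 752 against 576 in gamma delta and 441 against 227 in NK cells. The part of these in the Klf2 splits was not tested.

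Of the homing and quiescence genes compared, 4 of 18 were at least 2-fold higher with Klf2 in CD8 cells, against 3.85% of all genes. In CD4 cells 3 of 18 were higher, against 4.52%, and in gamma delta cells 3 of 13, against 6.5%. Foxp3 cells had 1 of 15, against 3.38%, and NK cells 1 of 10, against 6.71%, a single gene each and near the background. In CD8 cells the higher genes included Klf3 (53.3 against 15.7 CPM, log2 ratio 1.75), Bach2 (1.65) and Nsg2 (1.45). In gamma delta cells Klf3 was 164 CPM with and 25.9 CPM without Klf2 (2.59), while the interleukin 2 receptor chain Il2ra was 28.0 and 288 CPM (-3.27). Of 16 activation and effector genes compared there, 6 were lower with Klf2, against 6.59% of all genes, and 3 higher, against 6.5%. In CD8 cells 5 of 14 immediate early genes were also higher with Klf2, against 3.85% of all genes, among them Egr1 (1.70), Fos (1.62) and Jun (1.56). In NK cells 2 of 12 were higher, against 6.71%, in CD4 cells 1 of 15, against 4.52%, and in Foxp3 cells 0 of 14. In gamma delta cells 1 of 12 was higher, against 6.5%, and 3 were lower, against 6.59%. The part of these genes in the Klf2 split was not tested. In Foxp3 cells 2 of 10 cycling genes, Tyms (-1.22) and Mki67 (-1.0), were lower with Klf2, against 2.75% of all genes. In gamma delta cells 3 of 7 were lower, against 6.59%, and 1 higher, against 6.5%. In NK cells 1 of 9 was higher, against 6.71%, and in CD4 and CD8 cells 0 of 10 passed 2-fold.

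A split at 1 Tcf7 UMI separated 123 glioma CD8 cells with Tcf7 (median 9267 UMIs) from 241 without (8952 UMIs). Dapl1 was 116 CPM with and 20.7 CPM without Tcf7 (log2 ratio 2.47, interval 2.06 to 2.92), and Klf2 was 210 and 105 CPM (1.0). The Dapl1 interval again leaves out that 45.4% of its UMIs lay in 5 cells. Of the 7 other genes of the set 2 were at least 2-fold higher, Dapl1 and Igfbp4, against 2.61% of all genes. Il7r was lower with Tcf7 (153 and 204 CPM, -0.42, interval -0.64 to -0.20). Of 25 activation and effector genes, 13 were at least 2-fold lower and none higher in cells with Tcf7, against 3.81% of all genes lower. The lower genes included Prf1 (37.0 against 140 CPM, -1.92), Gzmb (565 against 2063 CPM, -1.87), both of the cytotoxic granule, and the inhibitory receptors Havcr2 (-1.62) and Lag3 (-1.58). Myb (1.38) and Slamf6 (1.18), genes associated with self-renewing T cells, were higher. No cycling gene of 10 passed 2-fold.

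Glioma CD4 cells split the same way, 71 with and 360 without Tcf7. Klf2 was 164 and 58.9 CPM (log2 ratio 1.48), S1pr1 68.7 and 15.5 CPM (2.15) and Lef1 52.7 and 25.2 CPM (1.07). Of the 5 other genes of the set compared 3 were higher, against 3.8% of all genes. Of 25 activation genes 9 were lower, against 6.51%, with Prf1 (-2.19), Nkg7 (-2.06), Lag3 (-1.97) and Ifng (-1.95) the furthest. Id3 (2.14) and Slamf6 (1.93) were higher.

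Dapl1 marked a further split of the glioma CD8 cells, 47 with at least 1 UMI (median 12782 UMIs) and 317 without (8890 UMIs); 1 cell held 43 of the 249 Dapl1 UMIs. Tcf7 was 101 CPM with and 50.1 CPM without Dapl1 (1.01, interval 0.61 to 1.39), while Klf2 was 96.8 and 152 CPM (-0.64, interval -1.01 to -0.31). Of the 7 other genes of the set 2 were higher, Tcf7 and Igfbp4, against 2.66% of all genes. The lymph node receptor Ccr7 was 447 and 168 CPM (1.41) and the inhibitor of DNA binding Id3 was 49.0 and 11.9 CPM (2.04). The medians of their lists were smaller. Of 18 homing and quiescence genes 2 were higher, against 2.66% of all genes, and 0 lower, against 5.73%, with a median of -0.08, against -0.03 over all genes. Of 10 TCF/LEF partners and targets 2 were higher, against 2.66%, and 1 lower, against 5.73% (median 0.27). Of 9 tissue residence genes 6 were at least 2-fold lower with Dapl1 (median -1.25), against 5.73% of all genes, including the integrins Itgae (-2.78) and Itga1 (-1.90) and the chemokine receptors Cxcr3 (-1.53) and Cxcr6 (-1.26). Ccl5, a chemokine of effector cells, was 468 and 2897 CPM (-2.63). Of the 25 activation and effector genes 3 were lower, against 5.73% of all genes, and 0 higher, against 2.66% (median -0.43). No cycling gene of 10 passed 2-fold in either direction, and Mki67 had a log2 ratio of -0.05.

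The 10 control CD8 cells with Dapl1 and the 13 without gave a similar order for some genes and not for others. Ccr7 was 482 and 115 CPM (2.03), Lef1 305 and 66.9 CPM (2.11) and Tcf7 276 and 86.0 CPM (1.63), and Ccl5 was 758 and 14395 CPM (-4.24). Gzmb, a granule protease, had 1 UMI in the cells with Dapl1 and 83 in those without. Of 10 homing and quiescence genes compared 2 were higher, against 3.18% of all genes, and 1 lower, against 12.4%. Of 9 activation and effector genes 6 were lower, against 12.4% of all genes, and 0 higher. Of the 5 other genes of the set compared 4 were higher, against 3.18% of all genes, and 0 lower, against 12.4%. Klf2 was 1073 and 841 CPM with an interval that included no difference (-0.07 to 0.77). Mki67 was at 0 UMIs on both sides in control. Myeloid markers stood at 2923 and 4738 CPM in the 2 control sums and at 258 and 372 CPM in the glioma ones. Whether the splits differ between libraries was not tested.

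**Figure D5:**
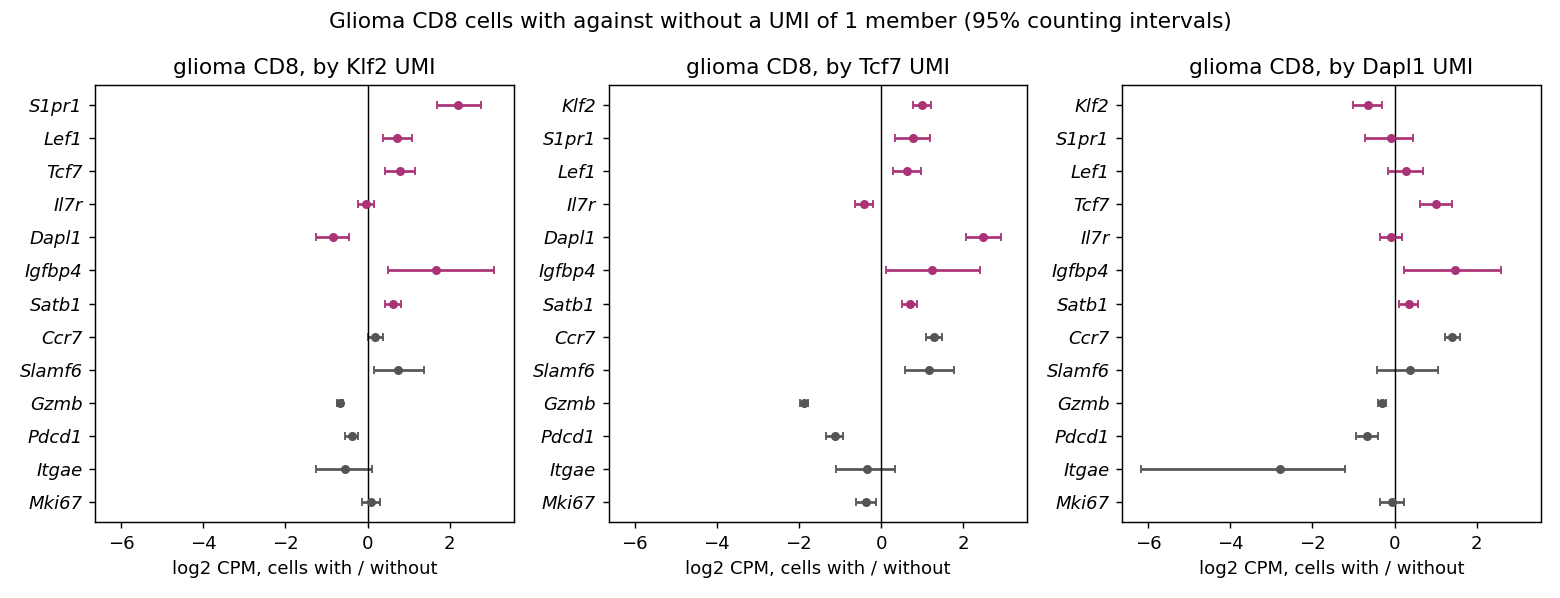
Log2 ratio of CPM between glioma CD8 cells with and without a UMI of Klf2 (left), Tcf7 (middle) or Dapl1 (right), with 95% counting intervals; purple points are genes of the set, and the 6 grey genes were chosen after the values were seen. S1pr1 lies furthest to the right for Klf2 (2.19), Dapl1 for Tcf7 (2.47), and Itgae furthest to the left for Dapl1 (-2.78). Of the Dapl1 UMIs 45.4% lay in 5 cells.

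Across 13 class sums of at least 50 cells, the genes whose log2(CPM + 10) ran most like a member were listed by Pearson's r as a description. Dapl1 ran closest to Cd8b1 (r = 0.973) and Cd8a (0.967), which gate the CD8 class. Klf2 ran closest to the glucocorticoid-induced gene Tsc22d3 (0.955), S1pr1 to Rcbtb1 (0.952), Lef1 to Hdgfl3 (0.963), Il7r to Tubgcp4 (0.947) and Igfbp4 to Ehd4 (0.915). These sums share library and depth, and no control lymphocyte class was large enough to enter; 2 of them, the control mature dendritic and glioma microglia gates, went against their markers.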

How the data were processed

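Both groups, of 4 labelled samples each, were measured with Chromium 3' kits, v2 or v3 per the labels' protocols. The authors deposited raw UMI counts of 31053 genes by 6794880 barcodes, 1 matrix per group; Cell Ranger 3.0.2, STAR and Seurat 3 are named, with builds mm10 and GRCh38, per the submitters' processing notes. The libraries held 124023146 (control) and 159689787 (glioma) UMIs. The 8 genes, the lists, the gates and the splits were chosen with earlier results of these data known.

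Classes were gated on raw marker UMIs: T cells needed 2 Cd3 UMIs, and lymphocytes could carry at most 25% of the median myeloid marker share of Csf1r-positive barcodes (limits of 0.718% and 0.339% of UMIs). No doublet caller was run. Counts were summed per class. Levels carry exact Poisson intervals, shares Clopper-Pearson intervals, and log2 ratios, with 0.5 UMIs added, conditional binomial intervals, all 95%. A gene counted as higher or lower when at least 2-fold apart with at least 20 UMIs over both sums. PCR duplicates are collapsed by UMI. With 1 library a group no test was possible. Named genes were the 8, up to 4 per list with the largest ratios, and the 3 most alike per member, of which the first, or for Dapl1 the first 2, are named; a few results under these rules, among them those for Tcf7 and Satb1, are not reported here. Others were chosen after their values were seen. Promoter windows are RefSeq entries and gene positions GENCODE entries of GRCm38. Free RNA came from barcodes ranked 45000 to 90000 by depth. The control gate for mature dendritic cells and the glioma gates for microglia and endothelial cells went against their markers and are not described. Python 3.11.15, NumPy 2.4.6, SciPy 1.17.1 and pandas 2.3.3 were used; the code was tested on simulated data.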

Additional observations from a re-analysis of the deposited data

Results flagged for a closer look

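Satb1 had ratios of glioma to control in opposite directions in 3 lymphocyte classes, each with an interval away from no difference. It was lower in CD8 cells (log2 ratio -0.68) and higher in B cells (1.26) and gamma delta cells (2.05), while the intervals in NK and CD4 cells included no difference. Without the limit on myeloid markers the CD8 ratio was 0.17, and the classes no longer differed in direction. The difference between the classes was not tested, since each class has 1 library per group.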

How the results depend on the processing

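Over 15 alternatives, 1012 values of single genes were recomputed: 930 stayed within the main counting interval and 82 moved outside it. The sign changed in 39 values, and in 2 of these the main interval excluded no difference. These were Dapl1 in CD8 cells, whose log2 ratio of glioma to control was 1.06 at most 5% mitochondrial UMIs, against -1.06, and Satb1 in CD8 cells, at 0.17 without the limit on myeloid markers, against -0.68. The limit of 5% mitochondrial UMIs left 3 of the set at least 2-fold lower in CD4 cells in place of 5. It left 0 in gamma delta cells in place of 1, which was Klf2 (-0.38). Without the limit on myeloid markers the count lower was 3 in place of 1 in NK cells and also 3 in place of 1 in B cells, and with the mean over cells it was 2 in place of 1 in NK cells. The other counts stayed within 1.5 times, and the cause was not tested. Klf2 stayed lower in glioma in all 5 classes under all 15. Leaving out the barcode richest in a gene, or barcodes with endothelial or neutrophil markers, both added after seeing the data, kept every single gene value within its interval, but the former took Dapl1 in CD8 cells to -0.88 and so below 2-fold. No paired analysis was possible because barcodes are not tied to animals, and for the same reason no replicate could be left out. The precision is set by 9 to 40 control cells a class.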
